A study of Rattus norvegicus with 20 samples.

Results

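Rats held to 30% less food for 1 week were compared with rats on the full diet for the same week, by the RNA of their livers. The comparison took in every probe set of the array that was not a control, 15866 of 15923, on the 4 arrays titled for these groups out of the 20 in the series. The 9520 probe sets with the highest mean signal were examined, and 8120 of them carried the name of 1 gene. With a gene represented by its brightest probe set, they covered 7055 genes. All animals were male Wistar rats, an outbred laboratory strain, and restriction began when they were 6 weeks old. All of them, control animals included, went without food for 16 h before the liver was removed. The control pool at 1 week held the RNA of 5 rats on the full diet, and the 30% pool that of 5 rats on the reduced diet. Each pool was hybridised on 2 Affymetrix GeneChips, so the arrays of a pool are repeats of 1 RNA and carry no spread between animals. Single pools of 5 rats at 5, 10 and 20% restriction for 1 week, and 5 such pools at 1 month, were used beside them. The labels give an age of 6 weeks to the arrays of 1 week and of 9 weeks to those of 1 month, and do not say at which point of the diet it was taken.

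The liver turns carbohydrate into fatty acids when food is plentiful, through enzymes whose genes are switched on by the transcription factors Srebp-1c (encoded by Srebf1) and ChREBP (encoded by Mlxipl). Its cholesterol synthesis genes follow Srebp-2, and the Insig proteins hold the Srebp proteins in the endoplasmic reticulum. In fasting the liver oxidises fatty acids, largely under the nuclear receptor Ppar alpha, and exports glucose and ketone bodies. Many of its metabolic genes also follow the daily clock, in which Bmal1 and Clock drive genes through E-box sequences, the Per and Cry proteins repress them, and Dbp, Hlf and Tef drive genes through D-box sequences. Feeding time is a strong cue for the liver clock.

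A probe set was called higher or lower in the 30% pool where the pool means differed by at least 1 on the log2 scale and both arrays of one pool lay above both of the other. This size rule gives no p-value, because each side is 1 pool. By it 560 of 9520 probe sets (5.88%) differed at 1 week, 251 of them higher (2.64%) and 309 lower (3.25%) in the 30% pool. Scaling the arrays to the same trimmed mean turned this split to 320 higher and 261 lower. Leaving out the first control array raised the count to 867, and leaving out the second raised it to 696. Without the first or the second 30% array it was 825 or 823. The rule then has 1 array fewer to separate, and the part of this in the counts was not tested. Over genes the count was 394 of 7055 (5.58%), with 175 higher (2.48%) and 219 lower (3.1%). In 151 of these genes a single pool mean or both lay under 11.7 signal units, the lowest mean signal examined, and such folds are given as lower bounds, with the dim value raised to that level.

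A pair of tests with repeated pools stand beside the size rule, both fitted with limma on pool means of all 10 pools and adjusted over all 9520 probe sets. The level fit compares both 30% pools (1 week and 1 month) with both control pools, with duration as a covariate, and the dose fit takes the slope over the 5 pools of 1 week, expressed per 30 points of restriction on the log2 scale. The 1 week pools enter both, so neither is independent of the size rule. By the level fit 431 probe sets (4.53%) passed, 233 higher (2.45%) and 198 lower (2.08%), or 334 of 7055 genes (4.73%), with 180 higher (2.55%) and 154 lower (2.18%). By the dose fit 67 probe sets passed (0.704%), 27 higher (0.284%) and 40 lower (0.42%), or 47 genes (0.666%), with 21 higher (0.298%) and 26 lower (0.369%). In what follows, genes are said to be higher or lower by the size rule, and to have risen or fallen only where the level fit or the dose fit passed an adjusted p of 0.05. Counts within gene lists are to be read beside the shares over all genes given above, by the same rule or fit. Level estimates are given on the log2 scale with their standard errors (SE). For a gene with a pool under 11.7 units, as for Dbp, Per2, Abcg5, Slc6a6 and Slc34a2, the estimate rests on signals too dim to size and is no bound. Without the 30% pool of 1 week the level fit called 107 probe sets in place of 431, without the control pool of 1 week 192, and without that of 1 month 123. The dose fit called 0 probe sets without the control, the 5% or the 30% pool of 1 week, where 1177, 1315 and 1115 had an unadjusted p under 0.05 by limma.

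Between arrays of the same pool the correlation of log2 signals was 0.954 for the control pool and 0.948 for the 30% pool, and between the pools it ran from 0.918 to 0.931. The median difference between pools, without sign, was 0.27 on the log2 scale. The hepatocyte markers were present as labelled: 14 of the 15 listed were examined and gave a summed signal of 54734 and 55249 units on the control arrays and of 54943 and 55439 on the 30% arrays. Quantile normalisation gives all arrays the same set of values, so a sum led by the brightest genes stays nearly level by construction. It cannot show whether the hepatocyte content differed. Summed signals of the other cell types were 1129 and 1035 against 1011 and 1057 units for Kupffer cells and macrophages (9 genes), 492 and 467 against 594 and 652 for endothelium (9 genes), 885 and 980 against 952 and 996 for stellate cells and fibroblasts (14 genes), and 828 and 801 against 736 and 731 for bile ducts (4 genes). The endothelial sum was higher and the bile duct sum lower on both 30% arrays. The signal ratio of the 3' to the 5' end was 1.5 and 1.52 against 1.44 and 1.47 for Gapdh and 2.89 and 2.58 against 2.41 and 2.06 for actin. In such bulk RNA, fewer cells of a type and less RNA per cell cannot be told apart, and the part of these values in the results was not tested.

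**Figure D1:**
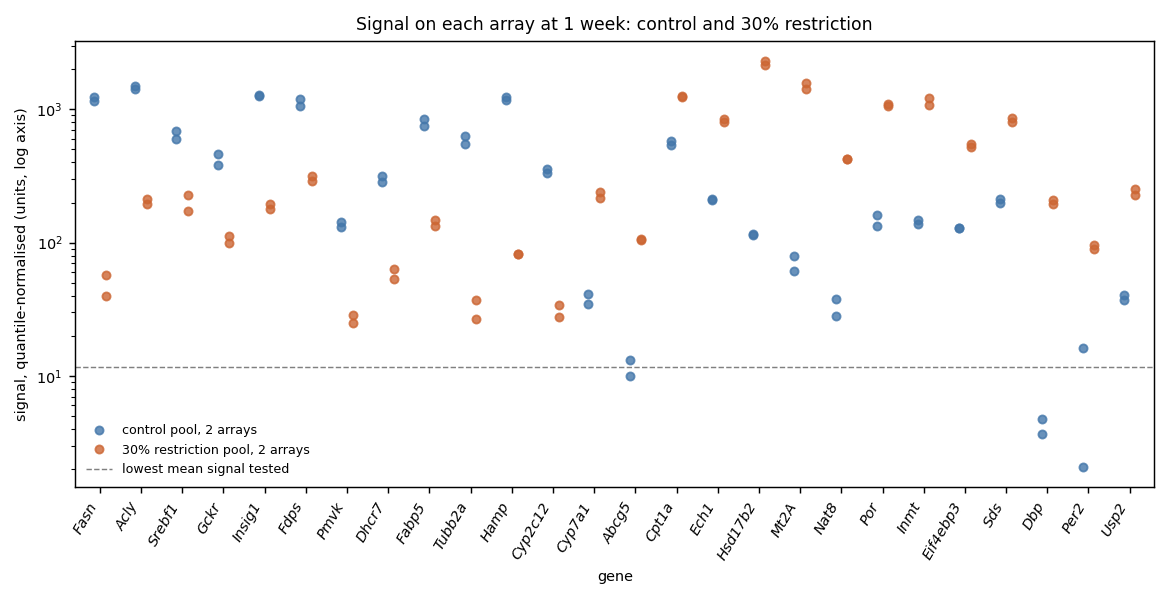
Quantile-normalised signal (units, log axis) of 26 genes on each of the 4 arrays, control pool in blue and 30% pool in orange, 2 points for the 2 arrays of a pool; the dashed line is the lowest mean signal examined. Fasn went from 1153 and 1237 units to 40.1 and 57.3, and Mt2A from 78.9 and 60.9 to 1582 and 1411. Every gene drawn was chosen among those past the size rule, so the pools do not overlap by construction.

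In fatty acid and triglyceride synthesis, 17 of 28 genes were lower in the 30% pool and 0 higher, and the median difference was -1.08, against a median of -0.004 over all genes. Fasn, the synthase that builds palmitate, gave 1153 and 1237 signal units on the control arrays and 40.1 and 57.3 on the 30% arrays, 24.9-fold lower. Acly, which makes cytosolic acetyl-CoA from citrate, went from 1411 and 1495 to 213 and 194 units, 7.14-fold lower. Pnpla3, a lipid droplet protein of lipogenic liver, had the largest difference of all, from 454 and 426 to 12.4 and 0.939 units, at least 37.7-fold lower. In each of these genes the arrays of a pool lay close together relative to the gap between pools, except for Pnpla3 at 30%, where both arrays were near or under the lowest signal examined.

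Lower signals were found from the supply of acetyl-CoA to glycerolipid assembly. That supply was represented by Acly, by Acss2 (295 and 271 to 132 and 118 units) and by the citrate carrier Slc25a1 (405 and 449 to 210 and 206). Acaca, which makes malonyl-CoA, went from 331 and 324 to 124 and 139 units, and a second Acaca probe set differed by -1.06. The NADPH-yielding enzymes Pgd (316 and 274 to 79.6 and 79.5) and Me1 (462 and 455 to 222 and 222) were lower as well, and for Me1 a second probe set differed by -2.84 in place of -1.05. The elongases Elovl6 (69.6 and 62.5 to 9.27 and 22.6) and Elovl5 (2453 and 2265 to 947 and 967) were lower, by 2.19 and 1.30 on the log2 scale. Gpam, which starts glycerolipid assembly, went from 47.7 and 67.2 to 19.3 and 20.6 units.

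Among the regulators, Srebf1 went from 603 and 694 to 171 and 229 units and Mlxipl from 65.2 and 74.7 to 39.3 and 26.8. Gckr, the protein that holds glucokinase inactive in the nucleus, went from 383 and 459 to 99.5 and 113 units. Not every lipogenic gene was lower by the size rule. The desaturases Scd (3233 and 3190 to 1588 and 1725) and Fads1 (1257 and 1207 to 646 and 616) missed the threshold by less than 0.05, while Thrsp, a lipogenic regulator, gave 2008 and 2166 against 1954 and 1908 units. Dgat2, which completes triglycerides, had the highest positive difference of the list, from 582 and 635 to 853 and 853 units.

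In the level fit 19 of the 28 genes fell and 1, Dgat2, rose. Fasn fell by 4.21 ± 0.46 (SE, adjusted p = 0.0011, limma, 2 pools against 2) and Acly fell by 2.66 ± 0.23 (adjusted p = 0.000833). Srebf1 fell by 1.80 ± 0.17 (adjusted p = 0.000844) and Elovl5 fell by 1.47 ± 0.14 (adjusted p = 0.000851). The fall of each of these 4 genes was past the threshold in all 20 alternatives, in which the highest adjusted p was 0.0372. Mlxipl did not pass (-0.66 ± 0.27, adjusted p = 0.218). Along the 5 pools of 1 week, Fasn (slope adjusted p = 0.0244), Elovl5 (0.0237), Gckr (0.0453) and Srebf1 (0.0484) were among the 5 genes of the list that fell with dose.

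Of 20 measured cholesterol synthesis genes, 9 were lower and 0 higher in the same pool. The differences of all 20 were negative, with a median of -0.87. Insig1, the sterol-sensing anchor of the Srebp proteins, went from 1292 and 1261 to 196 and 178 units, 6.83-fold lower, and Insig2 from 690 and 657 to 202 and 216. The mevalonate enzymes Pmvk (144 and 132 to 24.9 and 28.8 units) and Fdps (1198 and 1062 to 292 and 315) were lower by 2.36 and 1.90 on the log2 scale. Mvd, the next enzyme after Pmvk, went from 31.0 and 30.5 to 3 and 2.94 units, at least 2.63-fold lower. Late steps were represented by Dhcr7 (283 and 318 to 63.3 and 53.0), Cyp51 (561 and 494 to 195 and 207) and Nsdhl (773 and 760 to 364 and 383). Srebf2 itself overlapped between the pools, with 52.2 and 77.3 against 33.5 and 61.5 units.

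Across both durations 9 of the 20 genes fell in the level fit and 0 rose. Fdps fell by 1.82 ± 0.17 (adjusted p = 0.000833) and Pmvk by 2.26 ± 0.23 (adjusted p = 0.000945), each past the threshold in all 20 alternatives. Insig1 fell by 2.34 ± 0.40 (adjusted p = 0.0102), but lost that call in 4 of 20 alternatives. These were without the 30% pool or the control pool of 1 week, with the Gapdh ratio as a covariate, and without the variance trend. For Mvd the 1 month pools did not repeat the difference, with 34.6 and 12.8 against 16.2 and 14.9 units, and the level fit did not call it (adjusted p = 0.142). By the dose fit at 1 week 2 of the 20 genes fell, Fdps and Mvd (both slope adjusted p = 0.0446). At 30% Mvd lay under the lowest signal examined.

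Of 23 measured genes of bile acid synthesis and bile transport, 5 were higher and 0 lower, with a median of 0.29. Cyp7a1, which sets the pace of bile acid production from cholesterol, went from 41.0 and 34.9 to 239 and 215 units, 6.01-fold higher. Abcg5 and Abcg8, partners in the exporter that puts sterols into bile, went from 13.1 and 9.94 to 107 and 105 units and from 9.55 and 9.80 to 26.6 and 26.5, at least 9.10-fold and at least 2.28-fold higher. Akr1d1, a reductase of bile acid synthesis, went from 559 and 387 to 1371 and 1216 units. Nr0b2, the receptor Shp that represses Cyp7a1, was also higher, from 124 and 149 to 284 and 302 units.

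Of the 23 genes, 6 rose in the level fit and 1 fell, the latter being the canalicular transporter Abcc2 (599 and 597 to 431 and 424 units at 1 week). Cyp7a1 rose by 2.46 ± 0.41 (adjusted p = 0.00839). That call was lost without the 30% pool of 1 week, the control pool of 1 month or the variance trend, where the adjusted p reached 0.106. Abcg5 rose by 2.54 ± 0.32 (adjusted p = 0.00233), past the threshold in all 20 alternatives. Nr0b2 did not pass (adjusted p = 0.442): at 1 month it gave 185 and 188 units in control and 180 and 192 at 30%. The export pump Abcb11 and the bile acid receptor Nr1h4 had differences of -0.46 and -0.36 and were not lower by the size rule.

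Fatty acid oxidation genes were higher at a few steps and little different at most. In mitochondria 3 of 24 genes were higher and 1 lower (median 0.19), and in peroxisomes and omega oxidation 4 of 17 were higher and 0 lower (median 0.32). Cpt1a and Cpt2, which carry long-chain fatty acids into mitochondria, went from 576 and 542 to 1249 and 1237 units and from 182 and 195 to 408 and 419. The isomerases of unsaturated fatty acids Eci1 (292 and 276 to 837 and 979) and Ech1 (212 and 209 to 851 and 811) were higher by 1.67 and 1.98 on the log2 scale. Hacl1 and Phyh, enzymes of peroxisomal alpha oxidation, went from 302 and 269 to 1147 and 1096 units and from 1117 and 980 to 2478 and 2359. Ehhadh, of peroxisomal beta oxidation, went from 222 and 295 to 598 and 556 units. The acyl-CoA dehydrogenases Acadm and Acadl had differences of 0.05 and 0.28, and the hormone gene Fgf21 one of 0.12.

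Pdk4, the kinase that switches off pyruvate dehydrogenase in fasting, was lower, from 89.0 and 111 to 31.9 and 44.1 units. In the level fit 5 mitochondrial and 6 peroxisomal genes rose. Cpt1a rose by 1.03 ± 0.11 (adjusted p = 0.00108), Eci1 by 1.49 ± 0.13 and Ech1 by 1.78 ± 0.16 (both adjusted p = 0.000833), and Phyh by 1.08 ± 0.10 (adjusted p = 0.000844), each in all 20 alternatives. The 1 fallen gene of these lists was Crot, which moves shortened acyl groups out of peroxisomes (level estimate -0.82, adjusted p = 0.031). Pdk4 gave 65.7 and 68.8 units in control and 66.4 and 67.6 at 30% for 1 month, and did not pass (adjusted p = 0.251).

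Among lipid handling genes and Ppar alpha targets, 3 of 16 were lower and 2 higher. Fabp5, a fatty acid-binding protein, went from 755 and 851 to 134 and 147 units, 5.72-fold lower. It fell by 2.28 ± 0.33 in the level fit (adjusted p = 0.00433), though not without the control pool of 1 week or the variance trend. Plin2, the coat protein of lipid droplets, went from 1326 and 1357 to 397 and 388 units and fell with dose at 1 week (slope adjusted p = 0.0453), while the level fit did not call it (adjusted p = 0.0612). A second Plin2 probe set differed by -0.95, under the size rule, and did not pass the level fit (adjusted p = 0.268, limma). Angptl4, an inhibitor of lipoprotein lipase, went from 493 and 427 to 233 and 206 units and passed neither fit. Ppara gave 16.2 and 9.94 against 26.5 and 26.2 units, near the lowest signal examined, and the liver fatty acid-binding protein Fabp1 gave 5322 and 5103 in both pools.

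Glucose and glycogen genes differed at few points. Of 18 genes of gluconeogenesis and glycolysis, Gckr and Pklr were lower and 0 higher. Pklr, the liver pyruvate kinase, went from 1046 and 1099 to 544 and 509 units, and fell by 1.25 ± 0.16 (adjusted p = 0.00236); a second probe set differed by -2.31 in place of -1.03. Pck1, the gluconeogenic enzyme that fasting induces, gave 2359 and 1918 units in control and 2123 and 2140 at 30%, so its arrays overlapped. In glycogen metabolism Ugp2 (642 and 660 to 1478 and 1506) and the liver glycogen synthase Gys2 (83.7 and 96.8 to 186 and 191) were higher among 9 genes. The phosphorylase Pygl missed the size rule at -0.97 (707 and 684 to 352 and 359 units) and fell in the level fit (-1.05, adjusted p = 0.00108).

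Clock genes held the highest median of the pathway lists. Of 13 measured genes, 7 were higher and 1 lower, with a median of 1.09. Dbp, an output factor of the clock, went from 4.72 and 3.69 units, under the lowest signal examined, to 194 and 209, at least 17.3-fold higher. Per2, a repressor, went from 16.1 and 2.07 to 88.9 and 96.6 units, at least 7.95-fold higher. Hlf (17.3 and 20.5 to 71.2 and 71.6), Cry2 (19.8 and 17.4 to 53.5 and 41.4) and Per1 (19.5 and 26.6 to 45.5 and 51.6) were higher too. Nr1d2, a repressor of Bmal1, went from 40.5 and 44.8 to 181 and 177 units, and 2 further probe sets differed by 3.37 and 1.93 beside its 2.07. Usp2, a clock-controlled deubiquitinase, went from 37.1 and 40.6 to 229 and 250 units. The activator Bmal1 moved the other way, from 47.7 and 46.7 to 11.5 and 3.12 units, at least 4.05-fold lower.

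Among clock genes 6 rose in the level fit and 0 fell. Per2 rose by 3.10 ± 0.34 (adjusted p = 0.00108) and Usp2 by 2.25 ± 0.27 (adjusted p = 0.00152), each in all 20 alternatives, and Dbp by 3.92 ± 0.64 (adjusted p = 0.00811), though not without the control pool of 1 week or without the variance trend. Bmal1 did not pass (adjusted p = 0.292), with 40.7 and 43.7 against 29.3 and 29.3 units at 1 month, and neither did Per1 (adjusted p = 0.165). The hour at which the livers were taken is not given in the sources used here.

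Promoter sequences were read for the named genes of the lipid, cholesterol and clock lists, because these genes differed together and their regulators bind known short motifs. RefSeq promoters of the rat build GRCr8 were matched for 18 of 22 such genes, and the 250 bases before the start were searched on both strands. The Srebp motif TCACNCCAC was found in 0 of the 18 and in 0.974% of 33469 rat promoters. The E-box CACGTG was found in 2, Elovl5 and Insig1, both lower at 30%, and in 5.59% of all promoters. The D-box TTANGTAA was found in 1, Per2, higher at 30%, and in 2.04% of all promoters. A match is a description of the letters, not of binding. The stretches that hold them are given 5' to 3' on the gene's strand, with the motif in capitals: Elovl5 at chr8:87670914-87671017 on the plus strand, Insig1 at chr4:8057783-8057908 and Per2 at chr9:99497118-99497243 on the minus strand.
Elovl5: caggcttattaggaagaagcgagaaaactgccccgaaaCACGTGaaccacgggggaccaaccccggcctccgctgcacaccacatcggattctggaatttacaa
Insig1: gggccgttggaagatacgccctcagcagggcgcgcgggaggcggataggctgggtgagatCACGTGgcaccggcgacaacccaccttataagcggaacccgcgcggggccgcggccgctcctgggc
Per2: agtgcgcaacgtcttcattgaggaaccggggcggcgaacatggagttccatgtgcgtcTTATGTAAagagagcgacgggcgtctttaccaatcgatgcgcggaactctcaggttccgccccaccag

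Of 34 cytochrome P450 and partner genes, 7 were higher and 1 lower, with a median of 0.27. Por, the reductase that passes electrons to microsomal cytochromes P450, went from 133 and 161 to 1096 and 1055 units, 7.35-fold higher, and a second probe set differed by 2.96. The drug-sensing receptors Nr1i2 (102 and 99.8 to 227 and 218) and Nr1i3 (49.1 and 47.9 to 124 and 115) were higher, as were the oxidising enzymes Fmo1 (101 and 110 to 334 and 345), Adh4 (18.4 and 20.6 to 70.7 and 81.5) and Aldh1a1 (90.1 and 86.0 to 330 and 305). The abundant enzyme Cyp2e1 rose by 0.77 in the level fit (adjusted p = 0.00255), from 2768 and 2787 to 4652 and 4811 units at 1 week. The 1 lower gene was Ahr, the receptor of dioxins, with 19.8 and 35.1 against 15.1 and 7.15 units.

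Of these 34 genes, 11 rose in the level fit and 2 fell. Por rose by 2.63 ± 0.32 (adjusted p = 0.00152), in all 20 alternatives. The cytochrome Cyp2a2 and the reductase Cyb5r3 were the 2 that fell, by 0.59 and 0.44 (adjusted p = 0.00446 and 0.0224). Aldh1a1 did not pass (adjusted p = 0.090), with 144 and 120 against 174 and 167 units at 1 month.

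Conjugating enzymes and sex-biased liver genes held some of the largest single differences. Of 26 conjugating enzymes, 4 were higher and 0 lower. Nat8, an acetyltransferase of cysteine conjugates, went from 37.6 and 28.0 to 427 and 428 units, 13.2-fold higher. Inmt, a methyltransferase of indole amines, went from 149 and 138 to 1224 and 1070 units, 7.97-fold higher, and Ugt2b1, a glucuronosyltransferase, from 149 and 148 to 373 and 386. Hsd17b2, which inactivates estradiol and testosterone, went from 114 and 116 to 2166 and 2306 units, 19.4-fold higher. Cyp2c12, a steroid hydroxylase abundant in female rat liver, went from 354 and 335 to 33.8 and 27.5 units, 11.3-fold lower. The male-typical Cyp2c11 gave 3672 and 3580 against 3323 and 3375 units, a difference of -0.11. Of 21 sex-biased genes, 4 were higher and 1, Cyp2c12, lower.

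In the level fit Hsd17b2 rose by 3.33 ± 0.35 (adjusted p = 0.00108), in all 20 alternatives. Nat8 rose by 3.35 ± 0.48 (adjusted p = 0.00407) and Cyp2c12 fell by 3.05 ± 0.44 (adjusted p = 0.00391), neither without the 30% pool of 1 week or the variance trend. Inmt rose by 2.08 ± 0.41 (adjusted p = 0.019), but lost that call in 4 of 20 alternatives. These were without either 1 week pool of this comparison, with the Gapdh ratio as a covariate, and without the variance trend. Probe sets of the Cyp2c, Cyp2a, Sult2a, metallothionein and tubulin families can bind transcripts of close relatives, so their gene names are uncertain.

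Amino acid genes differed at single steps. Of 32 genes of amino acid breakdown, Sds was higher and Kynu lower, near the shares over all genes (2.48% higher and 3.1% lower). Sds, the serine dehydratase, went from 200 and 212 to 868 and 802 units, 4.05-fold higher, and rose by 2.02 ± 0.36 (adjusted p = 0.0116). Kynu, of tryptophan breakdown, went from 1073 and 963 to 268 and 273 units, 3.76-fold lower, and fell by 1.73 ± 0.33 (adjusted p = 0.0171). Both calls were lost without the 30% pool of 1 week, the control pool of 1 month or the variance trend. That of Kynu was also lost without the control pool of 1 week. The urea cycle had 0 of 7 genes past the size rule, and 3, Arg1, Asl and Slc25a15, rose in the level fit by 0.36 to 0.65.

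Methionine, cysteine and taurine genes included 3 lower and 0 higher among 19. Slc6a6, the taurine transporter, went from 198 and 194 to 10.3 and 7.46 units, at least 16.8-fold lower, and fell by 4.20 ± 0.47 (adjusted p = 0.00125), in each of the 19 alternatives in which it was measured. Cth, which makes cysteine, went from 509 and 523 to 150 and 146 units and did not pass the level fit (adjusted p = 0.055). Chka, a choline kinase, went from 78.8 and 77.1 to 13.2 and 23.9 units. Mat1a and Ahcy, which make and clear S-adenosyl compounds, rose in the level fit by 0.77 and 0.69 (adjusted p = 0.00486 and 0.00775), with Mat1a at 1793 and 1856 units in control and 3497 and 3455 at 30%.

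Targets of Atf4, the factor that answers amino acid shortage, had a median of 0.50 at 1 week and of -0.21 at 1 month. Of 19 genes, 3 were higher and 1 lower at 1 week. The cationic amino acid transporter Slc7a1 gave 8.65 and 13.2 against 34.0 and 20.7 units, and the transporter subunit Slc3a2 83.9 and 78.6 against 163 and 181. Herpud1, of endoplasmic reticulum protein disposal, went from 377 and 403 to 899 and 901 units. Psph, of serine synthesis, was lower, from 25.3 and 22.2 to 14.6 and 9.49. The level fit called 0 of the 19, and at 1 month none of these 4 genes passed the size rule. Slc3a2 rose with dose at 1 week (slope adjusted p = 0.0483).

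Endoplasmic reticulum chaperones had a median of -0.32, with 19 of 25 differences negative. By the size rule 1 of them was higher and 1 lower, against 2.48% and 3.1% of all genes. The level fit called 5 fallen, among them the chaperone Hspa5, with 1320 and 1105 units in control and 754 and 707 at 30% (-0.63 ± 0.12, adjusted p = 0.017). With signals as deposited its adjusted p was 0.531, and the call was lost in 6 of 20 alternatives, among them without the control or 30% pool of 1 week or the control pool of 1 month. Creld2 fell by 0.78 ± 0.17 (adjusted p = 0.029), a call lost in 10 of 20 alternatives, among them without either pool of 1 week or of 1 month in the comparison. It also fell with dose at 1 week (slope adjusted p = 0.031). Edem1, which marks misfolded glycoproteins, rose by 0.73 (adjusted p = 0.0035). Among translation factors, 3 of 28 genes were higher and 0 lower. Eif4ebp3, a repressor of cap-dependent translation, went from 129 and 128 to 554 and 522 units, 4.17-fold higher, rose by 1.88 ± 0.20 in the level fit (adjusted p = 0.00108, all 20 alternatives) and rose with dose (slope adjusted p = 0.0237). Gas5, a non-coding RNA that hosts small nucleolar RNAs, gave 25.3 and 18.3 against 47.9 and 70.1 units and rose with dose as well (slope adjusted p = 0.030).

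Iron and heme genes were led by Hamp, which encodes hepcidin, the hormone that blocks iron export from cells. Hamp went from 1171 and 1246 units in control to 82.2 and 81.5 at 30%, 14.8-fold lower. It fell with dose at 1 week (slope -3.67, adjusted p = 0.0214) but not in the level fit (-2.03 ± 0.74, adjusted p = 0.17), since at 1 month it gave 2306 and 2039 units in control and 1918 and 1940 at 30%. Slc40a1, the iron exporter that hepcidin blocks, went from 125 and 125 to 279 and 271 units and rose by 1.12 ± 0.18 (adjusted p = 0.00626). That call was lost in 4 of 20 alternatives: without the 30% pool of 1 week, without the control pool of 1 month, with the Gapdh ratio as a covariate and without the variance trend. Its 2 other probe sets differed by 0.69 and 0.93, under the size rule. Of 19 genes of this list, 1 was higher and 2, Hamp and the heme enzyme Ppox, were lower.

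The summed signal of red blood cell transcripts, from Hbb and Alas2, was 2083 and 2158 units in control and 1238 and 1322 at 30%, and at 1 month 1186 and 1168 against 1174 and 1147. Alas2, the heme enzyme of red cell precursors, went from 56.2 and 59.2 to 18.1 and 23.5 units, and 2 of the 13 listed red blood cell markers were among the genes examined. The part of blood RNA in the differences of heme genes was not tested. Alas1, the liver form, gave 406 and 458 against 919 and 792 units, a difference of 0.99 just under the threshold.

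Of 13 tubulin and actin genes, 4 were lower and 0 higher. Tubb2a, a beta tubulin, went from 634 and 553 to 37.0 and 26.7 units, 18.8-fold lower, Tuba4a from 164 and 149 to 50.3 and 66.0, Tubb4b from 442 and 493 to 212 and 186, and Actg1, a cytoplasmic actin, from 922 and 1377 to 462 and 437. The level fit called the 4 of them fallen, Actg1 by 1.15 ± 0.12 (adjusted p = 0.00108, all 20 alternatives) and Tubb2a by 3.27 ± 0.69 (adjusted p = 0.0268, not without the control or 30% pool of 1 week or the control pool of 1 month). Neither Tubb4b nor Tuba4a passed without the control pool of 1 month, nor Tuba4a without the 30% pool of 1 week. Without the variance trend Tubb2a, Tubb4b and Tuba4a were not called. In the cell cycle list 3 of 19 genes were lower and 0 higher, a pair of cyclins and a cell cycle inhibitor. The mitotic cyclins Ccnb1 (40.8 and 28.3 to 8.85 and 2.06 units) and Ccnb2 (30.4 and 37.3 to 10.3 and 7.36) ended under the lowest signal examined, at least 2.92-fold and at least 2.89-fold lower. Cdkn1a, the inhibitor p21, went from 116 and 165 to 26.1 and 14.8 units. The level fit called 0 of the 19 cell cycle genes, while 1, Ccnb1, fell with dose at 1 week (slope adjusted p = 0.0453).

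Hormone-responsive genes passed the size rule in both directions. The glucocorticoid and metallothionein list had 2 of 16 genes higher and 2 lower. Its differences were positive in 14 and negative in 2, with a median of 0.17. The insulin, Igf and growth hormone list had 1 of 26 genes higher and 2 lower, with 15 differences positive and 11 negative. Mt2A, a metallothionein that glucocorticoids and zinc induce, had the largest difference among higher genes with both pools above the lowest signal examined, from 78.9 and 60.9 to 1582 and 1411 units, 21.5-fold. It rose by 3.85 ± 0.45 (adjusted p = 0.00141, all 20 alternatives). Mt1, another metallothionein, differed by 0.55 and passed neither the size rule nor the level fit (adjusted p = 0.195, limma). Sgk1, a kinase that glucocorticoids induce, was lower, from 215 and 227 to 92.0 and 72.6 units. Fkbp5, a chaperone of the glucocorticoid receptor, gave 59.6 and 63.1 against 97.6 and 112 units and rose by 0.90 ± 0.17 (adjusted p = 0.0171), losing that call under 8 of 20 alternatives. Stat5b, a carrier of the growth hormone signal, went from 45.5 and 49.8 to 19.8 and 13 units and fell by 1.31 ± 0.26 (adjusted p = 0.0186). That call was lost in 6 of 19 alternatives, among them on either array number alone and without the control or 30% pool of 1 week or the control pool of 1 month. Igf1 gave 2220 and 2645 against 1754 and 1868 units, a difference of -0.42, and fell by 0.37 ± 0.08 (adjusted p = 0.0334), lost under 11 of 20 alternatives. Igfbp1, a carrier of Igf1 that insulin represses, gave 344 and 349 against 575 and 584 units and passed neither rule.

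Other genes with large differences were of varied function. Higher were Lama3, a laminin chain (35.5 and 24.1 to 133 and 148 units), Tp53i13 (34.0 and 14.4 to 97.0 and 92.8), Nceh1, a cholesteryl ester hydrolase (26.6 and 6.96 to 62.2 and 54.2), and Sult2a6, a sulfotransferase of hydroxysteroids (32.4 and 19.7 to 96.0 and 108). Each of these 4 rose in the level fit, by 1.66 to 2.51. Sult2a6 passed in all 20 alternatives, while Tp53i13 and Lama3 did not pass without the 30% pool of 1 week. Nor did Lama3 pass without the control pool of 1 month or the variance trend. Nceh1 lost the call in 6 of 20, among them without the control or 30% pool of 1 week or the 30% pool of 1 month. Lower were Cmtm6 (221 and 196 to 44.5 and 56.2 units), Dipk2a (75.1 and 77.5 to 22.8 and 13) and Dnaaf9 (79.6 and 56.4 to 20.4 and 10.9), of which Dnaaf9 did not fall in the level fit (adjusted p = 0.0909). Cmtm6 fell in all 20 alternatives, and Dipk2a lost its call in 11 of 20. The phosphate transporter Slc34a2 went from 55.7 and 34.9 to 13.2 and 2.59 units, at least 3.78-fold lower, and fell by 2.61 ± 0.31 (adjusted p = 0.00152). Apobec1, which edits the transcript of apolipoprotein B, went from 36.4 and 34.7 to 2.37 and 9.37 units, at least 3.05-fold lower.

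**Figure D2:**
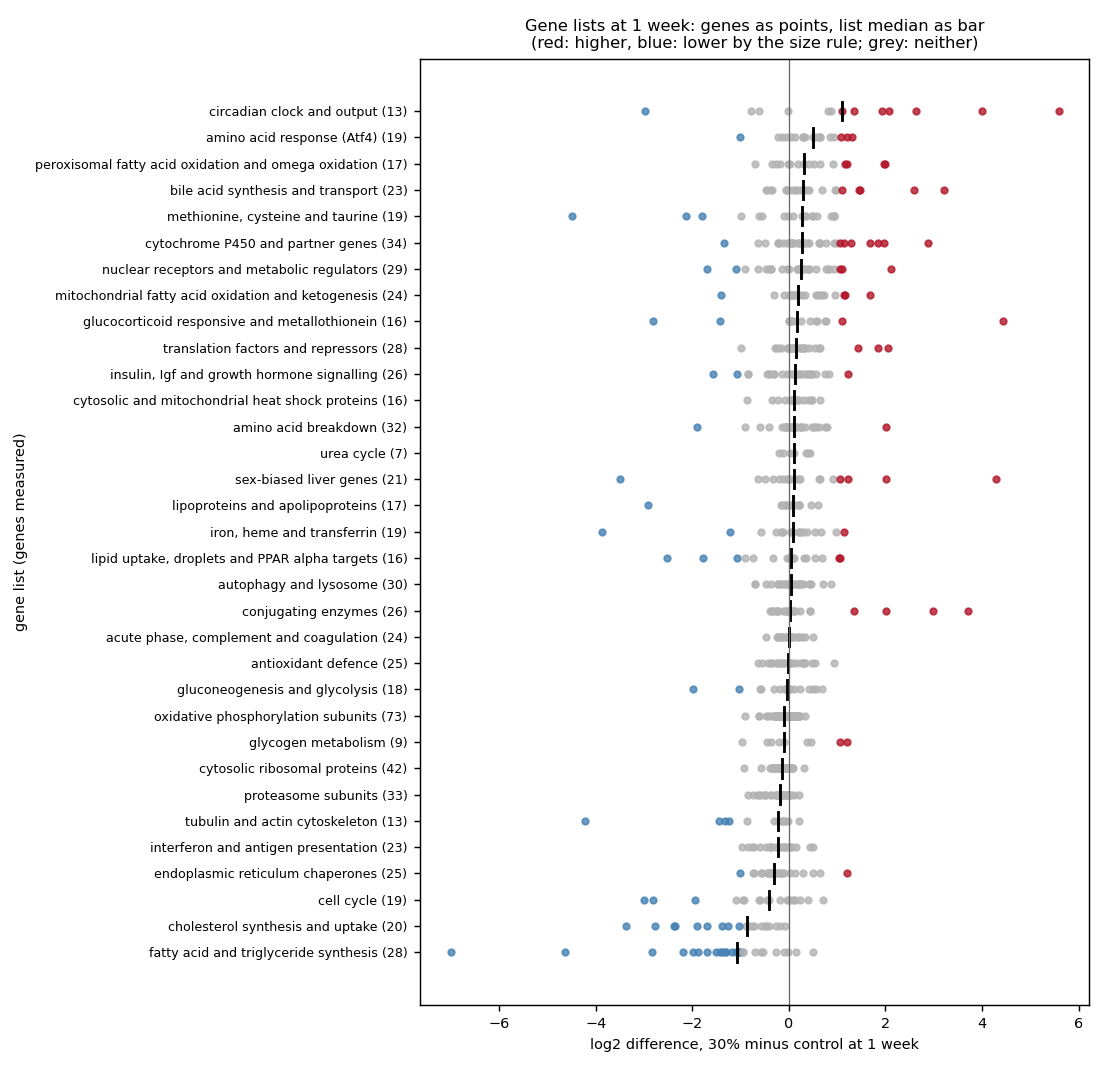
Log2 difference of each measured gene, 30% minus control at 1 week, in 33 pathway lists ordered by their median (black bar), with the number of genes in brackets; red and blue points are higher and lower by the size rule. Fatty acid and cholesterol synthesis lie at the low end (medians -1.08 and -0.87), clock genes at the high end (1.09).

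Large groups of genes stayed near the centre. Over all genes 5.58% were past the size rule. By the size rule 0 of 42 cytosolic ribosomal protein genes, 0 of 33 proteasome subunits, 0 of 73 subunits of oxidative phosphorylation, 0 of 30 autophagy and lysosome genes, 0 of 25 antioxidant genes and 0 of 24 acute phase, complement and coagulation genes were past it. Their medians were -0.15, -0.19, -0.10, 0.04, -0.02 and -0.01. Those of the ribosomal, proteasome and oxidative phosphorylation lists were below 0 under every scaling tried, while those of the other 3 changed sign or reached 0. In the level fit 1 autophagy gene rose, the mitophagy receptor Bnip3 (114 and 102 to 198 and 193 units at 1 week, adjusted p = 0.0109), and Keap1, which holds the antioxidant factor Nrf2 down, fell (71.7 and 64.5 to 45.2 and 42.3, adjusted p = 0.0272). The complement gene C9 fell by 0.30 (adjusted p = 0.04995). Of the proteasome subunits 3 fell, Psma1, Psmb8 and Psmb9, the latter a pair of the immune proteasome.

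Over the 5 pools of 1 week, the signals of the 30% pool stood at the end of different courses. These levels share the control pool and are set side by side without a test of one pool against another. A graded course was seen in Fasn, whose pool means ran 1194, 507, 259, 70.0 and 47.9 units from control through 5, 10, 20 and 30%, and in Mt2A (69.3, 378, 710, 1419 and 1494). Other genes stood apart from control at every level, as did Dbp (4.17, 141, 296, 236 and 202 units) and Insig1 (1276, 180, 124, 114 and 187). In both of these the 30% pool lay nearer to control than the 20% pool did. Igfbp1 ran 347, 196, 201, 292 and 579 units, and Tat, an enzyme of tyrosine breakdown, 354, 139, 218, 360 and 597. In both genes the 5% and 10% pools lay below control and the 30% pool was highest, while for Tat the 20% pool lay at the control level.

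**Figure D3:**
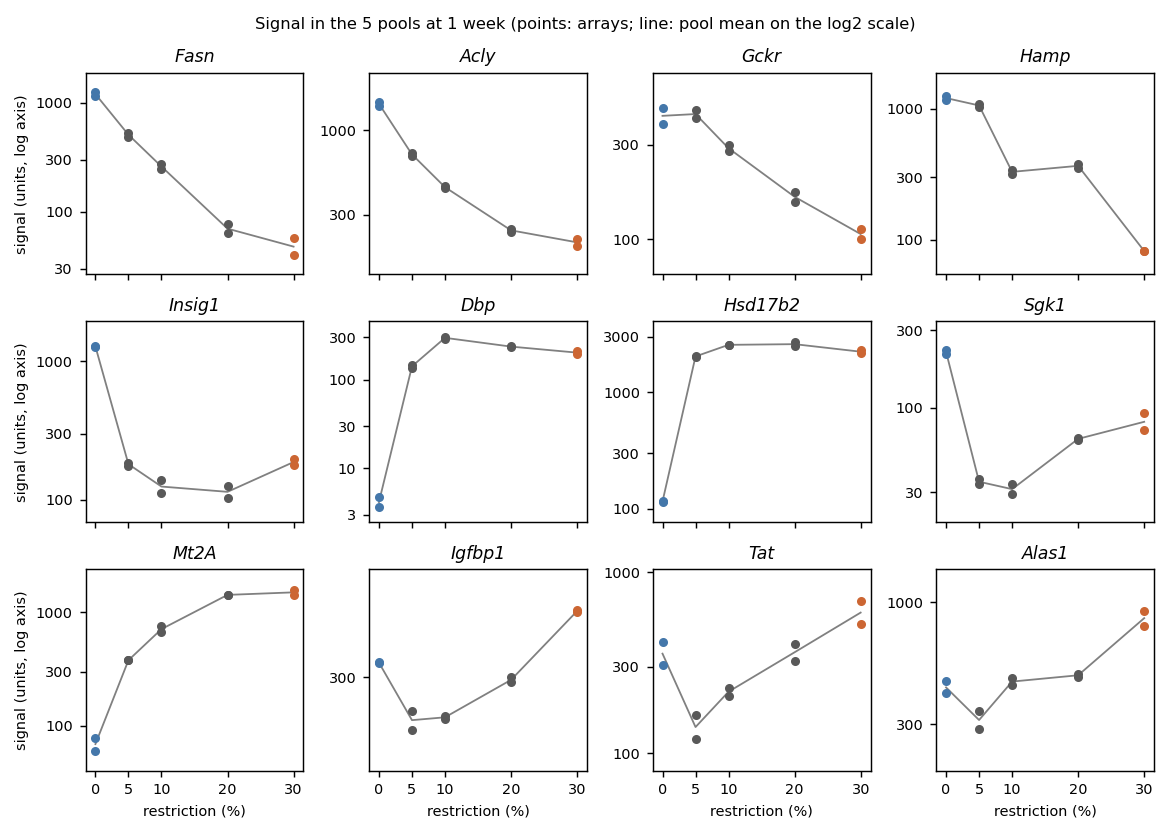
Signal (units, log axis) of 12 genes against the percentage of restriction at 1 week, with the 2 arrays of each pool as points (control blue, 30% orange) and the pool mean as a line. Fasn, Acly and Mt2A show a graded course, Dbp, Insig1 and Hsd17b2 a step at 5%, and Igfbp1 and Tat their highest level at 30%.

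A count of genes in which a pool stood alone, at least 1 log2 unit beyond the nearest other pool of 1 week with all arrays separate, was made after the values had been seen. The 30% pool stood alone in 4 of 7055 genes (0.0567%) and the control pool in 41 (0.581%). The 5, 10 and 20% pools stood alone in 6, 1 and 3 genes, so the count at 30% was like that of other restricted pools. The 4 genes of the 30% pool were Hamp, Mfsd13a and Sectm1b, which were lowest at 30%, and Trim36, which was highest. Hamp ran 1208, 1060, 330, 366 and 81.9 units from control to 30%, and Sectm1b 53.5, 42.0, 40.6, 27.0 and 6.98. Trim36 ran 3.10, 7.73, 8.65, 14 and 31.3 units, from under the lowest signal examined. Mfsd13a ran 41.6, 31.6, 31.5, 25.4 and 12.4.

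The pools of 1 month shared no rats with those of 1 week and repeated most of the directions. At 1 month 472 of 9520 probe sets (4.96%) passed the size rule, 266 higher (2.79%) and 206 lower (2.16%), or 332 genes (4.71%), with 181 higher (2.57%) and 151 lower (2.14%). With signals as deposited that split was 345 to 88, as the median over all probe sets then moved to 0.24. Of the 175 genes higher at 1 week, 137 (78.3%) had a positive difference at 1 month, against 49.6% of all genes, and 58 were higher by the size rule, which is 33.1% of the 1 week genes and 32.0% of the 1 month genes. Of the 219 lower genes, 172 (78.5%) were negative at 1 month, against 50.4% of all, and 65 were lower by the rule, 29.7% of the 1 week and 43.0% of the 1 month genes. Across all genes, which are not independent replicates, the correlation of the differences at the 2 durations was 0.42.

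Fatty acid synthesis genes had a median of -1.17 at 1 month, with 15 of 28 lower, and cholesterol genes one of -0.75, with 8 of 20 lower. Fasn gave 1052 and 995 units in control and 74.1 and 74.2 at 30% for 1 month, and Mt2A 110 and 92.1 against 993 and 941. Clock genes had a median of 1.21, with 7 of 13 higher. Dbp was higher by at least 1.52 on the log2 scale at 1 month, from 9.97 and 5.07 to 25.8 and 43.4 units, and by at least 4.11 at 1 week.

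A total of 10 genes passed the size rule in opposite directions at the 2 durations. Usp4, Cish, Tgfbrap1, Rabepk, Nbeal2, Neurl3 and Tead2 were lower at 1 week and higher at 1 month, and Tbx19, Ighl2 and Tnni1 the reverse. The difference of dose slopes between durations, tested with limma, was past the threshold for 0 of 9520 probe sets, with 523 at an unadjusted p under 0.05. For these 10 genes the adjusted p of that slope difference ran from 0.899 to 0.973.

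**Figure D4:**
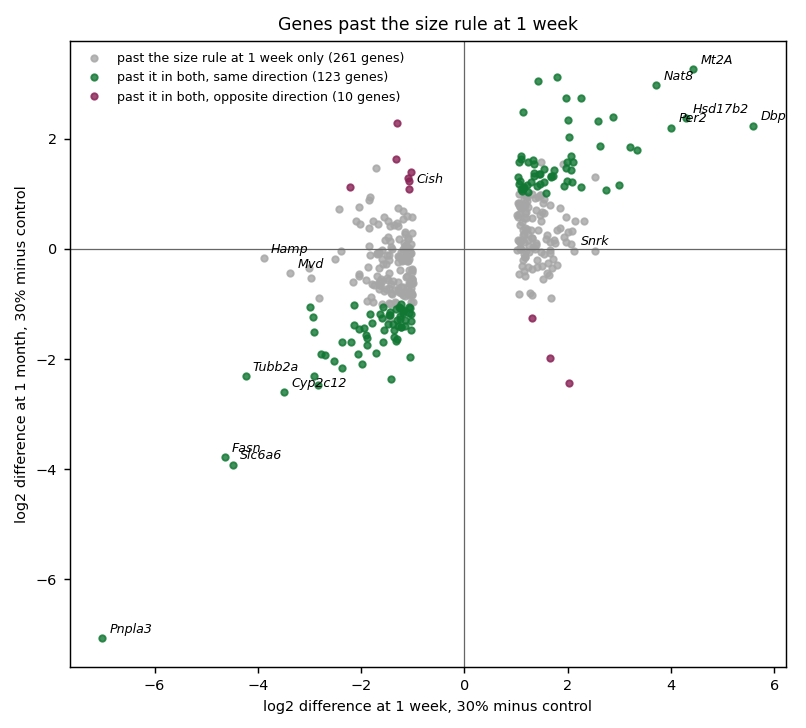
Log2 difference between 30% and control at 1 month (vertical) against that at 1 week (horizontal) for the 394 genes past the size rule at 1 week; green, 123 genes past it at both durations in the same direction; purple, 10 in opposite directions; grey, the other 261. Most points lie in the lower left and upper right, and Hamp lies near 0 at 1 month.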

How the data were processed

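Liver RNA of pools of 5 rats was labelled and hybridised on 2 arrays per pool, per the labels' protocols. The authors deposited the intensity of each probe set, a linear MAS5 signal per the submitters' processing notes. No source used here gives the MAS5 version or scaling target. The 57 control probe sets were left out, 32 signals of 0 were set to the smallest positive signal of their array, and the deposited signals were put on the log2 scale and quantile-normalised over all 20 arrays. Alb, brightest on every array, therefore has the same value throughout. The upper 60% by mean log2 signal were tested. Of these, 245 probe sets carried several gene symbols and 1155 none. The label "higher" or "lower" needs no test, and limma 3.58.1 in R 4.3.3 gave both fits, with Benjamini-Hochberg adjustment, a variance trend and, in the level fit, 4 residual degrees of freedom before moderation. Each p sets a fitted level or slope against the scatter of pool means about the model, and does not measure the spread between rats. Both procedures were tested on simulated data, with the same noise at every signal level and planted changes larger than the threshold of the size rule. Calls on dim signals or near that threshold were not covered by it.

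The genes named were the 15 largest differences in each direction with both pools at or above the lowest mean signal examined, up to 5 in each direction with a pool under it, up to 4 past the size rule in each of 40 lists, and a set of fixed genes. Other list members given as examples were chosen after their values were seen. The comparison, the lists and the fixed genes were chosen with earlier results of these data known. Array numbers share no origin across pools that the labels state, and array deviations of the same number correlated at r = 0.045 across probe sets, so the arrays were not paired. No batch is given in the labels. Alternatives were other scalings, other handling of dim signals, the filter, the variance trend, the Gapdh ratio as a covariate, and leaving out each array or pool.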

Additional observations from a re-analysis of the deposited data

Results flagged for a closer look

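Among the 112 genes chosen to be named, both 30% arrays lay on one side of both control arrays at 1 week and on the other side at 1 month in 3, Sgk1, Cish and Nr1d1. Other genes were not searched for this pattern, apart from the 10 genes past the size rule in opposite directions, of which Cish is 1. The difference between the durations at 30% was not tested, and the adjusted p of the difference in dose slopes, by limma, was 0.966, 0.973 and 0.966 for Sgk1, Cish and Nr1d1.

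Sgk1, a kinase that glucocorticoids induce, differed by -1.44 on the log2 scale at 1 week and by 0.15 at 1 month, where control gave 130 and 137 units and 30% gave 145 and 151. Its lowest pool at 1 week was that of 10% restriction, with 33.5 and 29.3 units, so the 30% pool lay between that pool and control.

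Cish, an inhibitor of growth hormone signalling, differed by -1.07 at 1 week and by 1.09 at 1 month, where control gave 13.7 and 18.9 units and 30% gave 31.9 and 37.0. All of these signals were low, and the 20% pool of 1 week stood highest, at 67.6 and 96.2 units.

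Nr1d1, a repressor of the clock, differed by 0.86 at 1 week (25.1 and 22.1 to 44.0 and 41.7 units) and by -0.58 at 1 month (17.6 and 21.6 to 11.3 and 15.2 units). At 5% restriction for 1 week it gave 113 and 140 units.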

How the results depend on the processing

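The size rule at 1 week called 560 probe sets, 199 with 16 signal units added, 2004 with no filter on dim probe sets and 254 among the upper 40% by signal; leaving out arrays gave 696 to 1072, with 902 on the first array of each pool, 1072 on the second, and at most 867 where 1 array was left out. At 1 month it called 472, and 150, 1812 and 200 under those settings, 300 with dim values raised to the lowest mean signal, and 613 to 939 without arrays, with 939 on first arrays, 802 on second arrays and at most 769 without 1 array. The level fit called 431, with 261 on signals as deposited, 251 after median centring, 114 without the variance trend and 199 with the Gapdh ratio as a covariate; leaving out pools or arrays gave 107 to 572. Median centring turned its split of 233 higher and 198 lower to 100 and 151. The dose fit called 67, with 43 on signals as deposited (10 higher, 33 lower), 32 with no filter, 3 with the Gapdh ratio and 0 without the variance trend (1410 at an unadjusted p under 0.05 by limma); median centring gave 6 higher and 42 lower, and leaving out pools or arrays gave 0 to 418, with 41 on second arrays. The causes of these shifts were not tested. Settings with another filter also call from another number of probe sets, 15866 with no filter in place of 9520.

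All 94 named genes past the size rule kept their sign under every alternative, and 68 of them kept a difference of at least 1. Where arrays were left out or paired, the sign could not change, because the rule already separates all arrays of both pools. Only the other scalings could have changed it. Of 69 named genes past the level fit, 27 were past it in every alternative, 33 without the 30% pool of 1 week, 44 without the control pool of 1 week and 30 without the variance trend. The replicate block, which pairs arrays of the same number, gave 605 probe sets at 1 week and 507 at 1 month; the numbers only name the arrays. Signals near 11.7 units limit the folds of dim genes to lower bounds.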

Other observations

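Some markers of cells other than hepatocytes rose with restriction in the level fit, and so did 2 of 14 hepatocyte markers, with 0 fallen. Of 9 endothelial markers 3 rose and 0 fell: Kdr, a receptor of vascular growth factor, from 125 and 118 to 176 and 190 units at 1 week (adjusted p = 0.0149, limma), Ehd3 from 22.6 and 21.3 to 40.6 and 38.7 (adjusted p = 0.0266) and Fcgr2b from 103 and 79.6 to 108 and 147 (adjusted p = 0.0356). Of 9 Kupffer cell and macrophage markers 1 rose, Cd14, a co-receptor for bacterial lipopolysaccharide, from 97.6 and 102 to 171 and 182 units (adjusted p = 0.0187). None of Kdr, Ehd3, Fcgr2b and Cd14 passed the size rule at 1 week. At 1 week 6 of the 9 endothelial differences were positive and 3 negative. Of the 9 Kupffer cell and macrophage differences, 3 were positive and 6 negative, with a median of -0.13.

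Klf15, a factor of amino acid and glucose metabolism in fasting, rose by 0.71 (adjusted p = 0.0352), from 201 and 248 to 422 and 427 units at 1 week. Prlr, the prolactin receptor, gave 18.8 and 12 against 32.3 and 38.6 units and rose by 0.99 (adjusted p = 0.0415), a call that held in 4 of 19 alternatives.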
